A study of Mus musculus with 4 samples.

Results

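The circadian clock and its direct outputs were followed through 10 of the 32285 genes counted, in 4 brain sections of Nf1+/- mice. They were chosen by gene symbol: Arntl (ENSMUSG00000055116), Per1 (ENSMUSG00000020893), Per2 (ENSMUSG00000055866), Per3 (ENSMUSG00000028957), Dbp (ENSMUSG00000059824), Nr1d1 (ENSMUSG00000020889), Nr1d2 (ENSMUSG00000021775), Ciart (ENSMUSG00000038550), Tef (ENSMUSG00000022389) and Bhlhe41 (ENSMUSG00000030256). The study profiled fresh frozen brain on Visium slides, on which barcoded spots capture the mRNA of the cells lying above them, to ask about dense patches of oligodendrocyte precursor cells. All 4 sections carry the same genotype, Nf1+/- (heterozygous for Nf1), no section of another genotype was used here, and they are numbered 1 to 4 here as names only. The labels give no age, no time of day at collection and no statement of whether the sections came from separate mice, so n counts sections. P-values set differences between sets of spots against how those differences vary among these sections only.

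The clock is a feedback loop of transcription. ARNTL pairs with CLOCK or NPAS2 and binds E-box sequences to switch on the Per genes, the Nr1d genes, Ciart, Bhlhe41, Dbp and Tef, several of whose products then repress the loop, with NR1D1 and NR1D2 repressing Arntl itself. As a result, Arntl mRNA peaks in most mouse tissues at about the opposite time of day from Dbp, Nr1d1 and the Per genes, so the ratio of these genes to Arntl is a common reading of clock phase.

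Promoter sequences were searched for the motifs of the loop. RefSeq (GRCm38.p6) windows from 250 bases before to 50 bases after the transcription start were searched on both strands for the E-box CACGTG, its variant CACGTT, the D-box TTANGTAA bound by DBP and TEF, and the ROR element TAGGTCA bound by NR1D and ROR proteins; the motifs do not overlap each other in these windows. The E-box stood in 5 of the 12 windows available for these genes and in 7.15% of all 32851 windows. Arntl, Per1 and Tef have 2 windows each, so windows are not a count of genes. The variant E-box stood in 1 of the 12 (Nr1d1) and 4.68% of all windows, the D-box in 1 (Per3) and 2.32%, and the ROR element in 1 (Arntl, starting 30 bases after the start) and 2.61%. Beside the genes printed below, the E-box was found in the window of Bhlhe41 and in each of the 2 windows of Tef. The windows of Dbp and Nr1d2 held none of these letters, and Per2 has no entry in the table. Promoters of 4 feedback genes are shown because they hold the letters that ARNTL, or DBP and TEF, are known to bind, although a match is not evidence of binding. Each runs 5′ to 3′ on the gene's strand over the 250 bases before the start, with the matches in capitals.
Ciart, chr3:95882229-95882478, minus strand, with 3 E-boxes: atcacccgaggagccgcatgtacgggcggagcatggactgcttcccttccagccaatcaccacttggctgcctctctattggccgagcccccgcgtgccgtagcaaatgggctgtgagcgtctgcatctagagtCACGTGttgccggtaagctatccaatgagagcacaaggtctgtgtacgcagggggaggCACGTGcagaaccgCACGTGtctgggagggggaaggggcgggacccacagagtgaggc
Per1, chr11:69098699-69098948, plus strand, with 1 E-box: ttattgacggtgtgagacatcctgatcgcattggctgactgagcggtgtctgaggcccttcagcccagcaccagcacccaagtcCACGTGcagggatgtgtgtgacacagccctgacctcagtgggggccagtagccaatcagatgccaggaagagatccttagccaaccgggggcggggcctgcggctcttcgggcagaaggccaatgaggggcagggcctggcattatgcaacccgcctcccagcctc
Nr1d1, chr11:98775378-98775627, minus strand, with 1 variant E-box read on the other strand: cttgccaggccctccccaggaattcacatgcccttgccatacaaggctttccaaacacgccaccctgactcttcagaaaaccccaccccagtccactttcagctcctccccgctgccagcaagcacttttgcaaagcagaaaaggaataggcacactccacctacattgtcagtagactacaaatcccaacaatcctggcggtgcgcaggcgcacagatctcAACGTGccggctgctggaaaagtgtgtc
Per3, chr4:151044666-151044915, minus strand, with 2 D-boxes: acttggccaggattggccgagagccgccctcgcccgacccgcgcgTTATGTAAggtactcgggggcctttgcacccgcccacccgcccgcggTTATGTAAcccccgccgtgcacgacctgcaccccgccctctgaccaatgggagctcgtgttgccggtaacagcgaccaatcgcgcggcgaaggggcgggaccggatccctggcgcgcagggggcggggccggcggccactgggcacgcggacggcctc

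A short account of the sections is needed before the values. They held 1435 to 2359 spots and 19261710 to 37002379 unique molecular identifiers (UMIs, each marking 1 captured mRNA molecule), and spots with under 500 UMIs (1 to 26 per section) were left out. Pairs of sections shared 427 to 1989 spot barcodes, which come from the slide layout, and 0 shared barcodes held identical counts. A level is given in CPM, the UMIs of a gene per 1000000 UMIs of all genes in the same set of spots. Its 95% interval is the exact Poisson interval, which covers counting error only. Intervals of ratios between sections make no allowance for the sections being picked by their levels, as the highest and lowest were. Of 6 markers of the suprachiasmatic nucleus, the brain's central clock, the transcription factors Six6 and Lhx1 reached no more than 1.23 CPM in any spot group described below and Avp, Prokr2 and Prok2 no more than 5.90 CPM. The sixth, Vip, which cortical interneurons also express, was at 56.1 to 87.3 CPM in cortex spots and up to 133 CPM elsewhere. Whether any spot covered that nucleus was not tested. Since spots hold mixed cells, fewer cells of a type and less RNA per cell cannot be told apart.

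All 10 genes were detected in all 4 sections, and the loop was read first through Arntl and its opposing outputs. Arntl, the activator, was counted at 16.7, 20.6, 20.9 and 16.9 CPM in sections 1 to 4 (mean 18.8 ± 2.30, SD, n = 4), from 325 to 763 UMIs. Sections 2 and 3 stood above sections 1 and 4. Within each of these pairs the ratio was close to 1 (1.02 and 1.01), and its counting interval included 1. Dbp, an output of the loop and itself a D-box activator, was counted at 210.8, 280.0, 248.9 and 259.6 CPM (mean 249.8 ± 29.0). Its order was section 2, 4, 3 and 1, and every step in that order lay outside counting error, although the steps from section 2 to 4 and from 4 to 3 were only 1.08-fold and 1.04-fold.

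Arntl and Dbp did not mirror each other. Section 1 was the lowest for both genes, and section 2, the highest for Dbp, was within counting error of the highest for Arntl. Dbp stood at 12.6, 13.6, 11.9 and 15.4 UMIs per UMI of Arntl in sections 1 to 4. The highest ratio, in section 4, was 1.29 times the lowest, in section 3, with a counting interval above 1. With 1 value per section, no test between sections was possible.

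**Figure D1:**
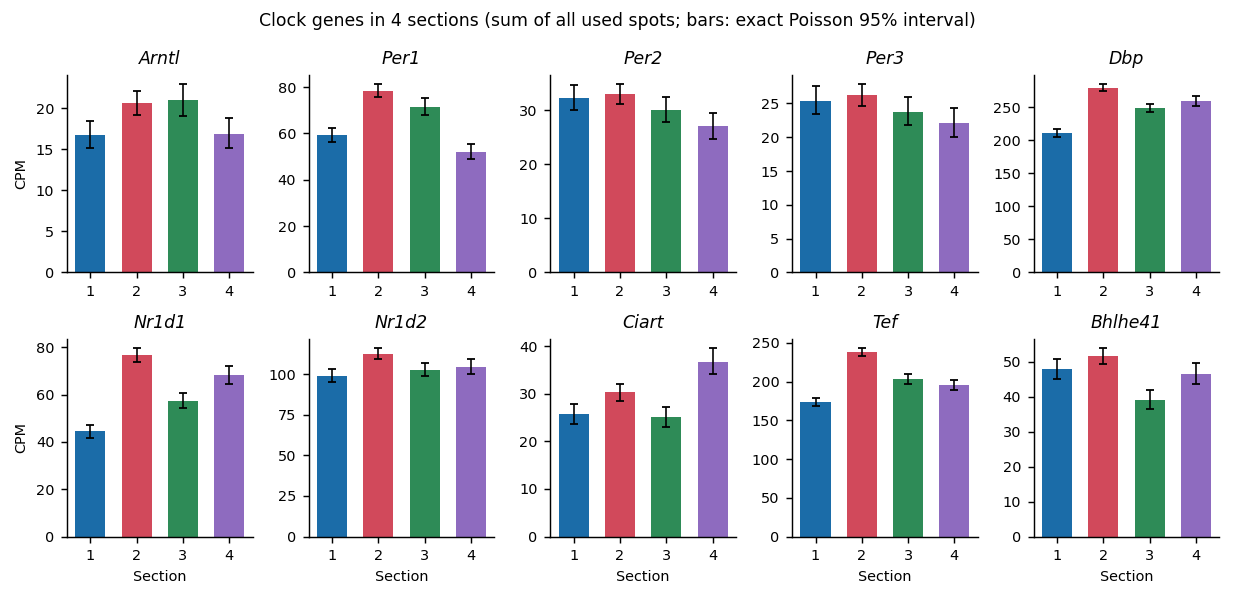
CPM of the 10 clock genes (one panel each, axis from 0) in sections 1 to 4, summed over all spots with at least 500 UMIs, with exact Poisson 95% intervals as bars. Section 2 is the highest for 8 of the 10 genes, while Arntl is highest in section 3 and Ciart in section 4.

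Nr1d1, the repressor of Arntl, varied most among the 10. It was counted at 44.4, 76.7, 57.2 and 68.1 CPM, and section 2 held 1.73 times the level of section 1 (95% counting interval 1.61 to 1.86). Its order of sections was the order seen for Dbp, as was that of Nr1d2, its close relative, over whole sections. For Nr1d2 the range was far narrower, from 99.3 to 112.7 CPM (1.14-fold), and only section 2 differed from its neighbour in the order beyond counting error. An order equal to that of Dbp was held by 7.63% of the 9387 genes with a mean of at least 10 CPM, and one equal to that of Arntl by 5.33%.

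The Per genes, repressors that close the loop, shared section 2 as the highest and section 4 as the lowest. Per1, which is also induced by light and neuronal activity, was counted at 59.3, 78.4, 71.6 and 52.0 CPM, a 1.51-fold range (95% counting interval 1.40 to 1.62) in which every step lay outside counting error. Per2 ranged from 27.0 to 32.9 CPM and Per3 from 22.1 to 26.2 CPM. For Per2 and Per3 no step between neighbouring sections was outside counting error. The highest and lowest sections, picked from the same counts, differed by 1.22-fold and 1.19-fold with intervals above 1.

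The other repressors and the second D-box activator each had an order of their own. Ciart, a repressor of ARNTL and CLOCK, was counted at 25.7, 30.3, 25.1 and 36.8 CPM, with section 4 above every other section (1.47-fold over section 3, interval 1.31 to 1.64). Tef, which binds the same D-box as Dbp, was at 174, 238, 203 and 195 CPM, and section 1 was again the lowest. Bhlhe41, an E-box repressor, was at 47.9, 51.5, 39.1 and 46.5 CPM, and only section 3, the lowest, differed from its neighbour in the order beyond counting error.

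Read together, 2 of the 10 genes, Per1 and Nr1d1, spanned at least 1.5-fold from the lowest to the highest section, beside 8.71% of the 9387 genes. Section 2 was the highest for 8 of the 10, and for 35.1% of the 9387. Section 3 was the highest for 1 (Arntl), section 4 for 1 (Ciart) and section 1 for 0, beside 23.3%, 22.2% and 19.4% of the 9387. Section 1 was the lowest for 5 of the 10 (Arntl, Dbp, Nr1d1, Nr1d2 and Tef), and for 36% of the 9387. Section 4 was the lowest for the 3 Per genes, section 3 for Ciart and Bhlhe41 and section 2 for 0, beside 27.1%, 18.6% and 18.3%. The median of the 10 genes' log2 levels relative to each gene's mean over the sections was −0.15, 0.14, −0.03 and −0.03 in sections 1 to 4, against −0.03, 0.03, 0.00 and −0.01 over all 9387 genes. Among 14 other clock genes above 10 CPM, 1, 11, 9 and 7 were above their mean in sections 1 to 4. Of all 9387 genes, 3672, 5814, 4809 and 4359 were above theirs. The median of the 14 genes was −0.15, 0.10, 0.02 and −0.001 in sections 1 to 4.

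Relative to Arntl, the 9 other genes gave no common order of all sections. Section 3 nevertheless held the lowest ratio for Per2, Per3, Dbp, Nr1d2, Ciart, Tef and Bhlhe41. Only for Bhlhe41 was its counting interval clear of that of the next lowest section. The exceptions were Nr1d1, lowest in section 1, and Per1, lowest in section 4, both with intervals that overlapped that of section 3. Nr1d1 stood at 2.65, 3.72, 2.73 and 4.04 UMIs per UMI of Arntl, so that sections 2 and 4 lay above sections 1 and 3 with intervals that did not overlap. Ciart was highest in section 4 at 2.18 and lowest in section 3 at 1.20. Per1 went the other way, with its lowest ratio, 3.08, in section 4 and its highest, 3.803, in section 2. Per2, Per3 and Bhlhe41 were highest in section 1, at 1.93, 1.52 and 2.86, with intervals that overlapped those of section 4. The 9 ratios share Arntl, highest in section 3, as their denominator, so they are not independent readings of a section.

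**Figure D2:**
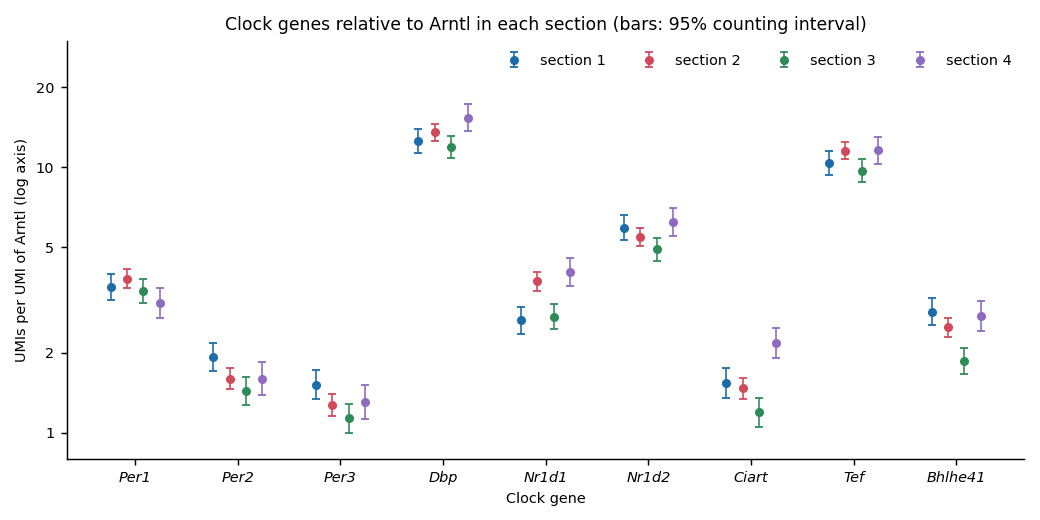
UMIs of 9 clock genes per UMI of Arntl in sections 1 to 4 on a log axis, with 95% counting intervals as bars. Section 4 is highest for Dbp, Nr1d1, Nr1d2, Ciart and Tef, whereas it is lowest for Per1 at 3.08. Among these genes, only for Ciart is the section 4 interval clear of every other section.

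Spot make-up differed between sections, so the orders were also read within groups of spots chosen by the same markers. Choroid plexus-marker spots, with at least 3 of 10 markers, numbered 189, 4, 7 and 76 and were kept out of these groups. White matter spots were the 15% of spots in each section with the largest share of UMIs from 6 myelin genes, Mbp, Mobp and Cnp among them, 188 to 354 per section. Cortex, striatum and 2 further groups were the remaining spots whose marker list stood highest and at least 1.5 times its average share. Cortex spots (137, 601, 465 and 420) carried Slc17a7 at 834 to 1148 CPM, and striatum spots (273 to 529) carried Ppp1r1b at 1626 to 1894 CPM. Spots picked by a list of hippocampal genes went against that name: Wfs1 alone led them (344 to 381 CPM), Spink8, Fibcd1 and C1ql2 stayed at no more than 29.2 CPM and Dsp at or near 0, so they are called Wfs1-led spots. Spots picked by a list for thalamus and other subcortical gray matter did not share 1 leading gene: Zic1 led in sections 2 and 3 (286 and 311 CPM, with Prkcd next at 198 and 249.9) and Calb2 in sections 1 and 4 (226 and 185 CPM, with Zic1 next at 143 and 153). Slc17a6 and Tcf7l2 stayed at no more than 75.9 CPM and Lhx9 at or near 0, and these are called Zic1/Calb2-led spots.

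The last 2 groups were not alike across sections. In Wfs1-led spots, 8 striatal markers summed to 1987, 2996 and 2234 CPM in sections 1 to 3 and to 487 CPM in section 4, where 6 cortical markers summed to 1103 CPM against 523 to 662 CPM in the others. In Zic1/Calb2-led spots the striatal sum was 792 to 931 CPM in sections 1 to 3 and 336 CPM in section 4. Their part in the section orders and regional fold changes was not tested.

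In the 5 groups, Per1 and Nr1d1 kept the same lowest section throughout. The share of all genes that do so was not counted. Over whole sections, section 4 was the lowest for 27.1% and section 1 for 36% of the 9387 genes. Per1 was lowest in section 4 in 5 of the 5 groups, for instance at 80.0, 96.1, 81.8 and 60.3 CPM in cortex spots. In white matter spots, however, sections 1 and 4 stood at 57.6 and 57.3 CPM (104 and 57 UMIs), and in Wfs1-led spots at 55.8 and 54.1 CPM (189 and 50 UMIs), so there section 4 was the lowest by less than 2 CPM. Nr1d1 was lowest in section 1 in 5 of the 5, at 59.9, 97.6, 72.4 and 87.7 CPM in cortex spots and, where the gap was narrower, 51.8, 74.8, 57.2 and 55.9 CPM in striatum spots. Nr1d2, lowest in section 1 over whole sections, was lowest in section 4 in 4 of the 5 groups and in section 1 in 1. Dbp was highest in section 2 and lowest in section 1 in 4 of the 5 groups each, as was Tef, and Bhlhe41 was lowest in section 3 in 4 of the 5. Arntl kept its whole-section order, section 3, 2, 4 and 1, in cortex and striatum spots (50 to 254 UMIs per section). It was highest in section 2 in Wfs1-led spots (13 to 102 UMIs). In Zic1/Calb2-led (16 to 52 UMIs) and white matter spots (8 to 45 UMIs) it was highest in section 1. The 5 groups of a section share its library, so they are no replicates of one another.

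Genes of neuronal activity moved between the sections too, and by more. The median log2 level of 9 activity-regulated genes, relative to each gene's mean, was −0.79, −0.06, 0.11 and 0.48 in sections 1 to 4. Fos, a transcription factor induced within minutes of activity, was 3.46 times as high in section 4 as in section 1. Section 1 was lowest in 5 of the 5 spot groups for Fos, Junb, Arc, Nr4a1, Dusp1 and Ier2, and Nr1d1 had the same lowest section. Per1, which is also induced by neuronal activity, was instead lowest in section 4 in 5 of the 5 groups. Section 4 held the highest median of the 9 activity-regulated genes, 0.48. Of 8 clock-linked output genes with a mean of at least 10 CPM, 4, 4, 4 and 2 were above their mean in sections 1 to 4. Among them Sgk1 and Fkbp5, which glucocorticoids also induce, were highest in section 1 (2.00-fold and 1.94-fold over section 4). Cirbp and Tsc22d3 were highest there too, whereas Wee1, Usp2 and Nampt were lowest there. The part of either set in the levels of the clock genes was not tested.

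**Figure D3:**
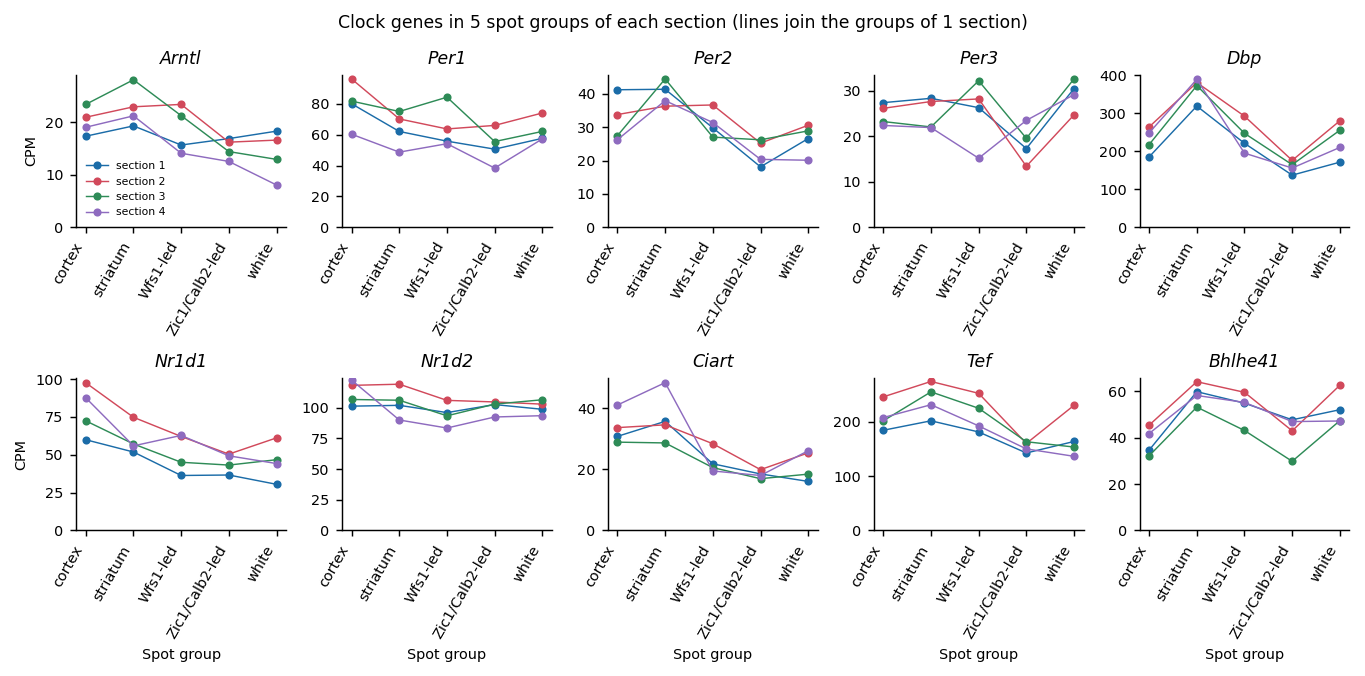
CPM of the 10 clock genes (one panel each, axis from 0) in cortex, striatum, Wfs1-led, Zic1/Calb2-led and white matter spots, with a line joining the groups of each section. Dbp peaks in striatum spots in all 4 sections (319 to 389 CPM), and Nr1d1 is highest in cortex spots in all 4.

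Between white and gray matter, Nr1d1 and Ciart were lower in white matter and the other 8 clock genes were not called. White matter spots were set against gray matter spots, the 50% of spots with the smallest myelin share, in sums per section by edgeR's quasi-likelihood test with the section as a block, and p-values were adjusted by Benjamini-Hochberg over 13520 genes. None of the 10 was called higher and 2 were called lower (Nr1d1 and Ciart) at an adjusted p-value under 0.05, beside 26.9% of all genes called, 13.9% higher and 13% lower, so the share of the 10 called was near that of all genes. The log2 fold changes ran from −0.46 to 0.32, and their median was −0.09, against −0.01 over all genes. Mature oligodendrocyte genes that the choice of spots did not use (Mag, Mog, Opalin, Aspa, Ermn and Ugt8a) summed to 1057 to 2064 CPM in white and 114 to 172 CPM in gray matter spots, and 6 neuronal genes to 2106 to 3282 and 3853 to 5225 CPM, so white matter spots kept much neuronal RNA. White matter spots were also shallower, with median UMIs of 4173 to 7923 against 10381 to 17958. The 2 groups differed in region as well. Cortical markers summed to 371 to 757 CPM in white and 955 to 1452 CPM in gray matter spots, and striatal markers to 1134 to 2501 and 1409 to 2027 CPM. The part of region in the differences was not tested.

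Nr1d1 was counted at 30.5, 61.2, 46.7 and 44.2 CPM in white matter spots of sections 1 to 4 and at 49.8, 79.2, 61.0 and 73.9 CPM in gray matter spots. It was lower in white matter in every section, although the ranges of the groups overlapped. The log2 fold change was −0.46 (standard error 0.11, adjusted p = 0.00374 from edgeR), and 15 of 16 alternative settings kept the call, the exception being the fit without the section as a block (adjusted p = 0.101). Ciart was at 16.1, 25.4, 18.4 and 26.1 CPM in white and 28.8, 30.1, 26.7 and 37.2 CPM in gray matter spots, and the groups did not overlap. Its log2 fold change was −0.44 (standard error 0.14, adjusted p = 0.0262 from edgeR). That call was lost under 8 of 16 alternatives, among them leaving out section 1, 3 or 4, DESeq2, and spots thinned to 5000 UMIs (log2 fold change −0.22). Thinning also left out spots under 5000 UMIs and chose the groups anew among the rest.

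For the other 8 genes the test gave no call. Arntl was at 18.3, 16.6, 12.9 and 8.04 CPM in white matter spots, from only 8 to 45 UMIs, against 17.9, 21.3, 22.9 and 18.8 CPM in gray matter spots. Its log2 ratio ranged from 0.05 in section 1 to −1.14 in section 4, and its log2 fold change was −0.42 (standard error 0.18, adjusted p = 0.0951 from edgeR). Dbp was at 171, 280.1, 255 and 210.0 CPM in white and 221, 266, 244 and 259 CPM in gray matter spots (log2 fold change −0.07, standard error 0.090). White matter was the higher in sections 2 and 3 and the lower in sections 1 and 4. Bhlhe41 was higher in white matter in 4 of 4 sections (log2 fold change 0.28, adjusted p = 0.0594 from edgeR) and Tef lower in 4 of 4 (−0.22, adjusted p = 0.0802), while Per3 stood at 0.32 and Per1, Per2 and Nr1d2 between −0.12 and 0.00.

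Among 17 other clock genes tested, 5 were lower in white matter, and the median log2 fold change was −0.16. Bhlhe40, the E-box repressor related to Bhlhe41, fell most (log2 fold change −0.88, standard error 0.094), followed by Hlf (−0.55), the D-box relative of Dbp and Tef, then Rorb (−0.54), Rora (−0.42) and Cry2 (−0.41). Of 8 clock-linked output genes, Sgk1 (2.41) and Tsc22d3 (0.55), which glucocorticoids also induce, were higher and Noct (−0.35) was lower. Of 9 activity-regulated genes, 5 were lower (Fos, Junb, Egr1, Arc and Dusp1) and 0 were higher, and the part of these in the values of Nr1d1 and Ciart was not tested.

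**Figure D4:**
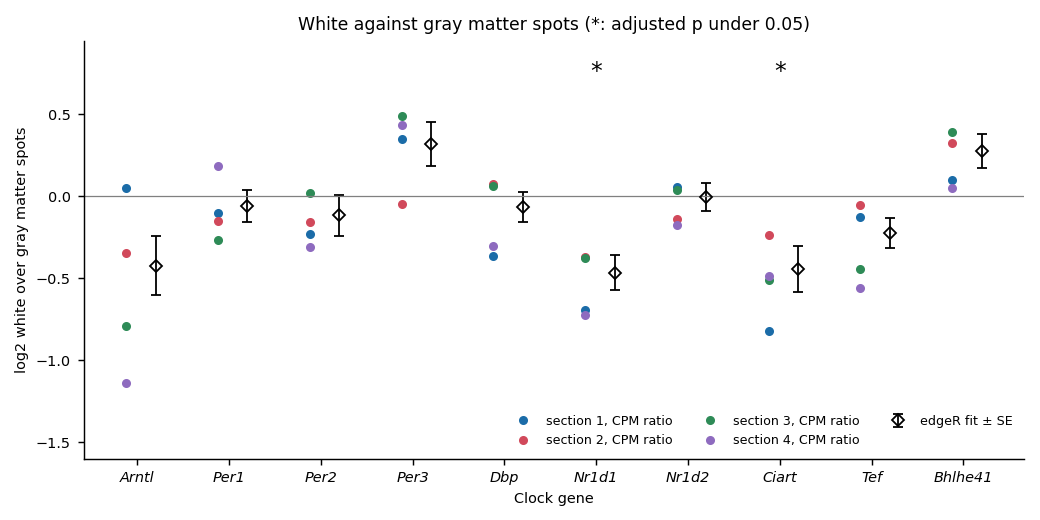
Log2 ratio of white over gray matter spots for the 10 clock genes, with filled points for the CPM ratio in each section and open diamonds for the edgeR estimate with its standard error. An asterisk marks the 2 genes with an adjusted p-value under 0.05, Nr1d1 (−0.46) and Ciart (−0.44), and the points of Arntl spread the most.

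Regions outside white matter were compared next. Striatum spots were compared with cortex spots in a fit over cortex, striatum, Wfs1-led and Zic1/Calb2-led spots with the section as a block and 12923 genes. In striatum, 6 of the 10 genes were higher and 1 lower, beside 45.7% of all genes called, 24.3% higher and 21.4% lower. The median log2 fold change was 0.31 for the 10 genes and 0.05 for all genes. Scaled by total UMIs alone, without edgeR's TMM factors, the median of all genes moved to −0.13, 1753 genes were called higher and 4261 lower in place of 3143 and 2769, and 4 of the 10 clock genes were higher and 2 lower. The CPM below are scaled by total UMIs, and the fold changes with TMM.

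Dbp was the gene with the largest difference. It was at 319, 381, 373 and 389 CPM in striatum spots and 185, 264, 217 and 248 CPM in cortex spots, and the groups did not overlap. Its log2 fold change was 0.85 (standard error 0.085, adjusted p = 1.06e-07 from edgeR). Bhlhe41 was at 59.9, 64.2, 53.2 and 58.2 CPM in striatum against 34.7, 45.4, 32.2 and 41.8 CPM in cortex spots, again with no overlap (log2 fold change 0.77, standard error 0.078, adjusted p = 1.5e-07). Both calls held under 12 of 12 alternatives, as did that of Tef (0.37, standard error 0.061). Per2 was at 41.4, 36.3, 44.5 and 38.0 CPM in striatum against 41.2, 33.8, 27.5 and 26.3 CPM in cortex spots, so the groups overlapped and sections 3 and 4 carried most of the difference (0.51, standard error 0.12, adjusted p = 0.00227 from edgeR).

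The remaining calls between striatum and cortex were less firm. Arntl (0.34, adjusted p = 0.0149 from edgeR) lost its call under 7 of 12 alternatives and Ciart (0.29, adjusted p = 0.0321) under 8 of 12, total-UMI scaling among them for both. Nr1d1 was the only one of the 10 called lower, at 51.8, 74.8, 57.2 and 55.9 CPM in striatum and 59.9, 97.6, 72.4 and 87.7 CPM in cortex spots (−0.23, standard error 0.073, adjusted p = 0.0152), and leaving out section 2 or 3 ended the call. Per1 was at 62.08, 70.21, 75.04 and 48.68 CPM in striatum and 80.0, 96.1, 81.8 and 60.3 CPM in cortex spots. Its fold change was not called (−0.15) but was called lower with total-UMI scaling (−0.32, adjusted p = 0.0058). Nr1d2 (0.06) and Per3 (0.19) were not called and turned below 0 with thinned spots, Nr1d2 also with total-UMI scaling.

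Members of the loop outside the 10 moved in either direction. Npas2, the partner of ARNTL that can replace CLOCK in forebrain, was higher in striatum than in cortex spots at 30.1 against 18.3 CPM on average (log2 fold change 0.85, standard error 0.14). Cry1 (0.53), Gsk3b (0.55) and Btrc (0.27) were higher too. Bhlhe40 (−1.33), Rorb (−1.20), Nfil3 (−1.02), Rora (−0.83) and Csnk1e (−0.42) were lower, which made 4 higher and 5 lower of 16 tested. Bhlhe40 and Bhlhe41, related repressors, thus differed in opposite directions, each in 4 of 4 sections. Of 9 activity-regulated genes, 0 were higher and 5 lower, Ier2 most (−1.98).

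In Zic1/Calb2-led spots, 8 of the 10 genes were lower than in cortex spots and 0 were higher, beside 33% of all genes called, 17.1% higher and 15.9% lower. The median log2 fold change of the 10 was −0.48, against 0.03 for all genes. Ciart was at 18.5, 19.9, 17.0 and 18.0 CPM in Zic1/Calb2-led spots against 30.8, 33.7, 28.9 and 41.1 CPM in cortex spots, with no overlap (−0.81, standard error 0.14, adjusted p = 0.00018 from edgeR). Nr1d1 was at 36.6, 50.4, 43.2 and 49.3 CPM in Zic1/Calb2-led spots below each of the cortex values (−0.81, standard error 0.087, adjusted p = 6.75e-07). Dbp was at 137, 176, 165 and 156 CPM, below each of the cortex values (−0.51, standard error 0.091, adjusted p = 0.000235). Per1 (−0.56) and Tef (−0.43) also kept their calls under 12 of 12 alternatives, as did Ciart, Nr1d1 and Dbp. Per3 (−0.49), Per2 (−0.46) and Arntl (−0.38) lost theirs under 3, 2 and 6 of 12, while Nr1d2 (−0.14) and Bhlhe41 (0.11) were not called.

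Other genes of the loop went the same way in Zic1/Calb2-led spots, with 7 of 16 lower and 0 higher: Rorb (−1.36), Bhlhe40 (−1.28), Rora (−0.99), Hlf (−0.99), Npas2 (−0.53), Csnk1e (−0.49) and Cry2 (−0.48). Of 9 activity-regulated genes, 7 were lower as well. Neuronal marker genes summed to 3001 to 3256 CPM there and to 5934 to 6738 CPM in cortex spots, and their part in the differences was not tested. Slc17a7, on this neuronal list, was also a marker that picked the cortex spots. It stood at 834 to 1148 CPM in cortex and 116 to 192 CPM in Zic1/Calb2-led spots, so part of the gap comes from the choice of spots. In striatum spots the neuronal marker genes summed to 2525 to 2925 CPM.

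In Wfs1-led spots, 1 of the 10 genes was higher than in cortex spots and 3 were lower, beside 28.9% of all genes called, 15% higher and 13.9% lower. With total-UMI scaling, 1502 of all genes were higher and 2090 lower in place of 1939 and 1799. Bhlhe41 was higher in 4 of 4 sections, with overlapping groups (54.9, 59.6, 43.1 and 55.2 CPM, log2 fold change 0.51, standard error 0.089, adjusted p = 0.000251 from edgeR). Nr1d1 was lower in 4 of 4, also with overlap (36.3, 62.1, 45.0 and 62.8 CPM, −0.61, standard error 0.085, adjusted p = 2.26e-05). Both calls held under 12 of 12 alternatives, while those of Ciart (−0.42) and Per1 (−0.30) were lost under 4 and 5 of them. The 3 regional comparisons share their cortex spots, so they are not independent, and differences between the 3 were not tested.

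**Figure D5:**
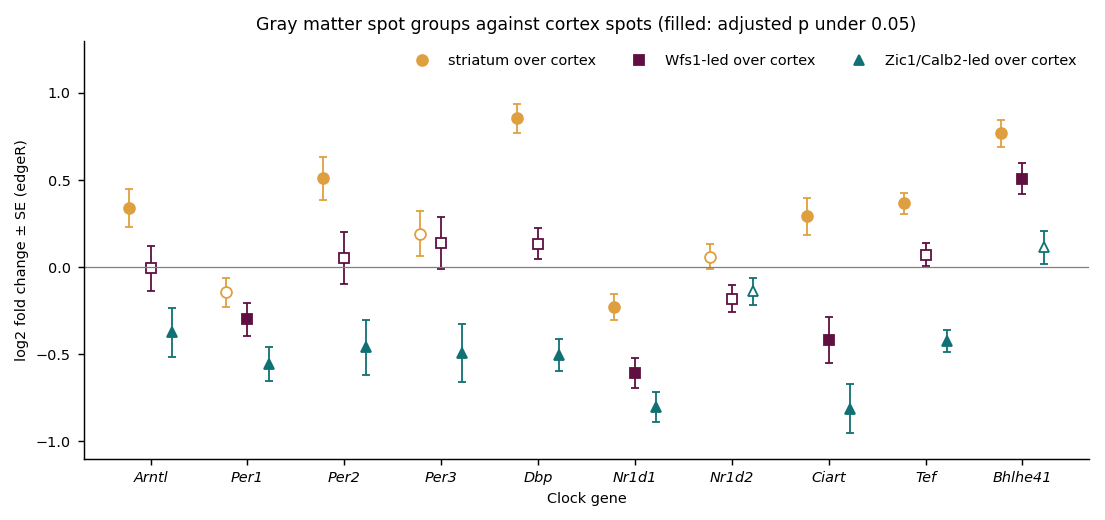
Log2 fold change with standard error of the 10 clock genes in striatum, Wfs1-led and Zic1/Calb2-led spots over cortex spots, with filled symbols for an adjusted p-value under 0.05 from edgeR. Dbp is at 0.85 in striatum and −0.51 in Zic1/Calb2-led spots, and Nr1d1 is below 0 in all 3 comparisons.

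Genes closest to Dbp in pattern between sections were looked for among 6991 genes with a mean of at least 20 CPM. Pearson's r was taken on log2(CPM + 5) over 20 sums, those of 5 spot groups in 4 sections. Each spot group's mean over the 4 sections was first taken off, so r leaves out differences between spot groups. Among the closest were Kdm4b (r = 0.88), Hpca (0.87), Lancl1 (0.86) and Tent4a (0.85). The most opposed were Tmem255a (−0.92), Marcksl1 (−0.90), Blcap (−0.88), 2900052N01Rik (−0.87) and Prdx4 (−0.87). Of the 10 clock genes, Tef came nearest to Dbp (0.71, rank 130) and Nr1d1 next (0.70, rank 151). Nr1d2 (0.55) and Ciart (0.52) followed, and Per1 (0.34), Bhlhe41 (0.20), Per2 (0.19) and Per3 (0.05) were further off. Arntl (0.30), with a mean of 18.8 CPM, was under the limit of 20 CPM and has no rank. The median over all genes was 0.12 and 904 genes exceeded 0.5. The 20 points share 4 libraries and differ in depth, so r is a description and carries no test.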

How the data were processed

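Fresh frozen sections of Nf1+/- mouse brain were profiled on Visium slides. Reads were run by the authors through Space Ranger (mm10), and the deposited matrices hold unnormalized UMI counts, the only values used. The 10 genes and all gene lists were chosen with earlier results of these data known. Spots with at least 500 UMIs were kept, assigned to groups by marker share and summed per section and group, since spots are not replicates. A spot can hold several cells. Sums were tested with edgeR 4.0.16 in R 4.3.3 (TMM scaling, filterByExpr, quasi-likelihood F-test with a term for section, adjusted by Benjamini-Hochberg at a threshold of 0.05). White and gray matter spots of the same section come from the same tissue and so are paired. Around the group means, the white and gray matter sums of a section varied together, with correlations of 0.227 to 0.335. Section levels have 1 value each and no test. The 10 clock genes were named in full, and other genes from the clock, output and activity lists. On simulated counts, 168 of 200 genes changed by 1 on the log2 scale were recovered in the white and gray matter design and 182 of 200 in the regional one. Smaller changes, such as those of the 10 clock genes, were not simulated. Alternatives included DESeq2 1.42.0, other scalings, filters and spot choices, spots thinned to 5000 UMIs, and leaving out each section. Intervals cover counting error only. A few genes of these lists are not reported here.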

Additional observations from a re-analysis of the deposited data

Results flagged for a closer look

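The levels of the 10 clock genes and their log2 CPM ratios between spot groups were examined as 50 sets of 4 sections, and in 4 sets 1 section lay far from the other three, where chance gives about 1 in 20. Nr1d2 in striatum over cortex spots was −0.44 in section 4, against −0.01 to 0.01 in the other sections. Tef in striatum over cortex spots was 0.34 in section 3, against 0.13 to 0.16. Ciart in Zic1/Calb2-led over cortex spots was −1.16 in section 4, against −0.75 to −0.73. Bhlhe41 in Wfs1-led over cortex spots was 0.66 in section 1, against 0.39 to 0.43.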

How the results depend on the processing

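Of the 10 genes in white over gray matter, the number lower was 1 with DESeq2, 4 with no filter on low counts and 0 without the replicate block, and the number higher was 1 with thinned spots, the top 10% and the top 20% of spots. In striatum, 2 were lower with total UMIs and 0 without the block, and 3 higher when thinned. In Wfs1-led spots, 1 was lower without the block and 2 higher when thinned. Thinning to 5000 UMIs left out 72, 143, 427 and 207 shallower spots of sections 1 to 4, and the spot groups were chosen anew among the rest. Calls over all genes then fell to 1782 (white matter), 3544 (striatum), 2450 (Zic1/Calb2-led) and 2092 (Wfs1-led). Lower depth and the change of spots cannot be told apart in these values. The number of genes spanning 1.5-fold between sections was 6 in white matter spots alone and 1 with thinned spots, equal weights, TMM, DESeq2 size factors or mitochondrial genes left out. The range of Dbp over Arntl was 2.79 in white matter spots alone, where Arntl had only 8 to 45 UMIs per section. Leaving out 1 section gave, for white matter, 2213 to 3934 genes, 0 to 1 clock genes higher and 1 to 3 lower. For striatum it gave 4614 to 5358, 4 to 6 and 0 to 1, for Zic1/Calb2-led spots 3197 to 3966, 0 and 6 to 7, and for Wfs1-led spots 2257 to 3785, 1 to 2 and 1 to 3. Between sections it gave 1 to 2 genes and a Dbp over Arntl range of 1.14 to 1.29.

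Without the replicate block, 2852, 4828, 3485 and 2940 genes were called. In white matter Nr1d1 (−0.45, adjusted p = 0.101) and Ciart (−0.47, 0.070) lost their calls. The direction turned only for values that were not called. For white matter these were Nr1d2 (0.0035 with DESeq2, 0.00055 with all deposited spots, 0.037 with choroid plexus-marker spots kept, 0.087 with the top 10%, −0.036 to 0.046 leaving out a section), Dbp (0.0087 thinned, −0.13 to 0.020 leaving out a section) and Per1 (0.047 thinned). In striatum they were Nr1d2 (−0.11 with total UMIs, −0.019 thinned) and Per3 (−0.28 thinned), and in Zic1/Calb2-led spots Bhlhe41 (−0.16 with a marker ratio of 2). In Wfs1-led spots they were Per2 (−0.0056 with total UMIs, −0.032 with choroid plexus-marker spots kept, −0.071 thinned, −0.047 to 0.18 leaving out a section), Tef (−0.056 with a marker ratio of 2) and Arntl (−0.18 to 0.029 leaving out a section). The cause was not tested.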
